A study of Mus musculus with 10 samples.

Results

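The AP-1 and small MAF factors are a group of 10 mouse genes for basic leucine zipper (bZIP) proteins. They were taken by symbol from a table of newly made RNA in erythroid cell lines, where they are 10 of 23309 named genes, and their binding sites were taken from lists of KLF3 and KLF1 peaks by the gene with the closest start site. The group holds the JUN genes Jun, Junb and Jund, the FOS genes Fos, Fosb and Fosl2, the related Atf3, the small MAF genes Mafg and Mafk, and Bach1. The authors tested 7 of the 10 in the RNA comparison, among 9619 tested genes, and gave no test for Jun, Fosl2 and Atf3. Assigned to the 10 genes were 13 of 4579 KLF3 peaks and 10 of 3800 KLF1 peaks.

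J2E-KLF3-ER is the mouse line J2E with an inducible transgene, the repressor KLF3 joined to an estrogen receptor domain, and was represented by 3 RNA libraries of clones A, C and E, all given 4-hydroxytamoxifen at 200 nM. J2E, an immortalised erythroid line of fetal liver with no transgene, was represented by 3 RNA libraries, of which replicates 1 and 2 received tamoxifen and replicate 3 ethanol as vehicle. RNA made during 30 minutes was labelled in both with 4-thiouridine (4sU) at 500 µM. KLF3 binding was measured in tamoxifen-treated J2E-KLF3-ER clone C with an estrogen receptor antibody, and KLF1 binding in tamoxifen-treated K1-ER clones A and C, which are Klf1-null erythroblasts with a KLF1-ER transgene, with a KLF1 antibody. Each immunoprecipitate had an input from the same cells, induction lasted 3 h, and each chromatin library combined 3 replicates.

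The 2 RNA groups differ in line, clone and transgene, and no J2E-KLF3-ER library without tamoxifen was analysed here, so activation of the fusion, clone differences and the drug cannot be told apart. The RNA table gives 1 pooled FPKM per gene and group, with no depth, no replicate values and therefore no error, and "called" means a q-value of the authors below 0.05. Whether the J2E libraries came from separate cultures is not in the labels, and the p-values of the authors may then measure technical spread. Klf3 stood at 180 FPKM in J2E-KLF3-ER, against 7.46 FPKM in J2E, in the authors' deposited table, and the reads of transgene and resident gene share that row. Erythroid markers were present: 9 of the 9 found in the table reached 1 FPKM in both groups. Their sum was 413 FPKM in J2E-KLF3-ER and 582 FPKM in J2E. Klf1 is part of this sum, at 55.6 FPKM in J2E-KLF3-ER and 122 FPKM in J2E. Not all of these markers were lower in J2E-KLF3-ER, as Alas2 had a log2 fold change of 0.58. Of other cell types, 4 megakaryocyte markers summed to 175 FPKM in J2E-KLF3-ER and 157 FPKM in J2E, led by Pf4 and Itga2b, and 5 myeloid and macrophage markers to 24.7 FPKM in J2E-KLF3-ER and 30.1 FPKM in J2E, mostly Csf1r. The 4 lymphoid markers summed to 0.680 FPKM in J2E-KLF3-ER and 0.733 FPKM in J2E, and the 3 mast cell markers to 0.144 FPKM in J2E-KLF3-ER and 0 in J2E. The part of these marker differences in the results below was not tested, and in such bulk samples fewer cells of a type and less RNA per cell cannot be told apart.

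AP-1 is a dimer that binds DNA through paired bZIP domains. JUN proteins pair with each other, with FOS proteins or with ATF proteins, whereas FOS proteins need a JUN partner, and many genes of the group respond within minutes to growth factors and stress. Small MAF proteins have the bZIP domain but no activation domain of their own. They bind as dimers with larger partners, among them NF-E2 p45, NRF2 and BACH1, at Maf recognition elements (MAREs), which in erythroid cells include sites in the globin locus control regions. BACH1 is a repressor that leaves such sites when heme binds it. KLF1 and KLF3 bind related CACCC-type and GC-rich sequences, KLF1 mainly as an activator and KLF3 mainly as a repressor.

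Among the 10 genes, newly made RNA of the JUN genes Junb and Jund fell in J2E-KLF3-ER, and no tested gene of the group rose. The other tested genes, Fos, Fosb, Mafg, Mafk and Bach1, lay between -0.17 and 0.16 in log2 fold change, with a lowest q of 0.748, by the authors' deposited table. Summed over the 3 JUN genes, FPKM was 37.9 in J2E-KLF3-ER and 74.8 in J2E, a ratio of 0.507. The 3 FOS genes of the group, without Fosl1, summed to 8.23 FPKM in J2E-KLF3-ER and 9.22 FPKM in J2E, a ratio of 0.892. The 2 small MAF genes of the group summed to 115 FPKM in J2E-KLF3-ER and 117 FPKM in J2E, a ratio of 0.979. These sums have no test.

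**Figure D1:**
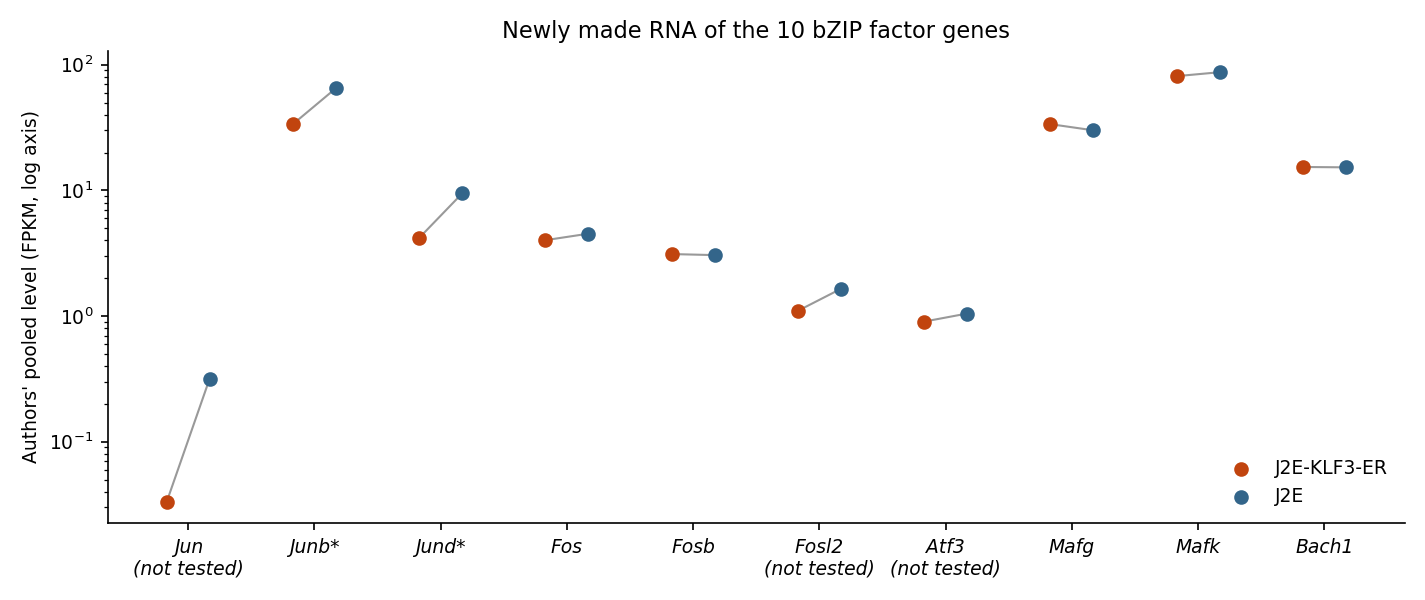
Pooled FPKM of newly made RNA for each of the 10 genes on a log axis, with J2E-KLF3-ER left of J2E in each pair; an asterisk marks the genes called by the authors' q, and 3 genes were not tested. The Junb and Jund points are lower in J2E-KLF3-ER, at 33.7 and 4.19 FPKM against 65.0 and 9.46 FPKM in J2E, while Mafg, Mafk and Bach1 lie almost level.

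Junb, whose protein is a JUN family member often opposed to c-JUN in growth control, had the highest level of newly made RNA among the JUN genes. It lies at chr8:87500808-87502647 (mm9) and had 33.7 FPKM in J2E-KLF3-ER, against 65.0 FPKM in J2E, as pooled values of the authors. Its level in J2E-KLF3-ER was 1.93-fold lower, and the authors' deposited table gives a log2 fold change of -0.95 (p = 5e-05, q = 0.00408). Junb made up 88.9% of the summed JUN family FPKM in J2E-KLF3-ER and 86.9% in J2E, so its share differed little while the sum was lower. In J2E its level was above that of 97.1% of all named genes.

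Jund, the JUN gene usually expressed most steadily across tissues, lies at chr8:73221638-73224515 (mm9) and had 4.19 FPKM in J2E-KLF3-ER, against 9.46 FPKM in J2E. The difference is 2.26-fold, and the authors' deposited table gives a log2 fold change of -1.17 (p = 5e-05, q = 0.00408). Jund was below the median tested gene, which had 12.6 FPKM in J2E-KLF3-ER and 12.4 FPKM in J2E. It made up 11.0% of the JUN family sum in J2E-KLF3-ER and 12.6% in J2E.

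Both q-values are at the table's floor, since the smallest p, 5e-05, is shared by 118 genes. Of the 7 tested genes 2 fell, or 28.6%, against 1.90% of all tested genes, and 0 rose, against 0.821% of all tested genes, by the authors' q. At an unadjusted p below 0.05 the counts were again 2 falling, against a background of 7.47%, and 0 rising, against 7.93%. With 7 genes, chosen when earlier results of these data were known, the count is a description. The median log2 fold change of the 7 was -0.10, beside 0.03 over all tested genes, whose 5th and 95th percentiles were -0.73 and 0.61. Among the 183 genes that fell, 61 changed as much as Jund or more and 96 as much as Junb or more, and their median was -0.96, so Junb stood near the middle of the falling genes.

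**Figure D2:**
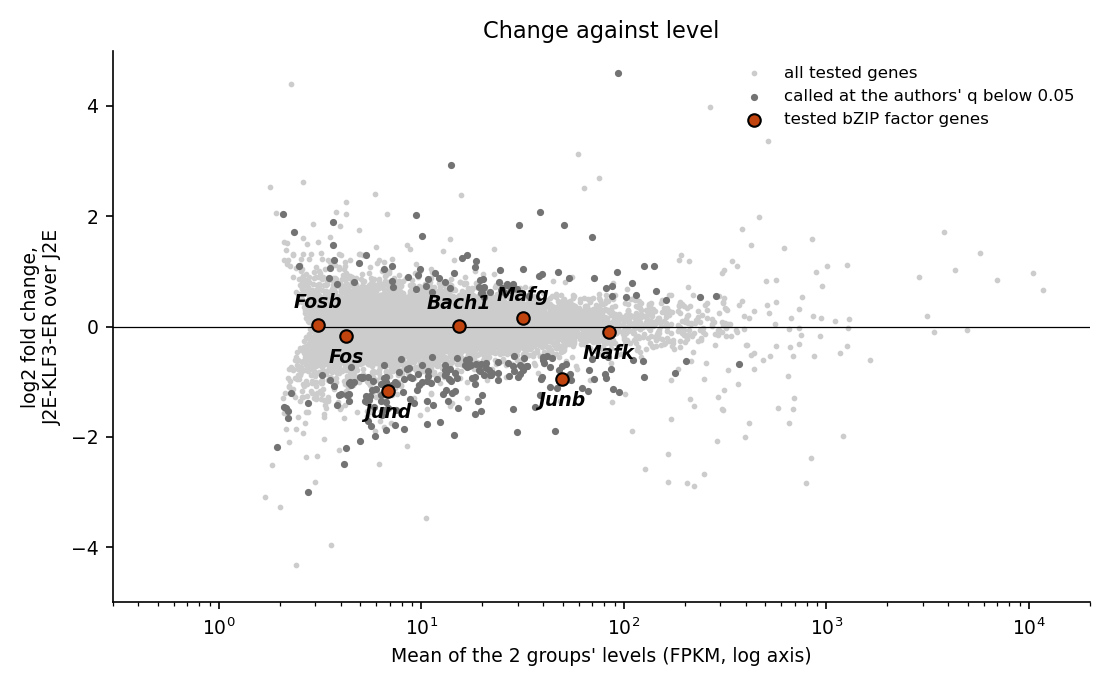
Log2 fold change of J2E-KLF3-ER over J2E (authors' values) against the mean FPKM of the 2 groups on a log axis for tested genes (45 with a level of 0 in 1 group and 4 with changes beyond 5 in size are not drawn), with genes called at the authors' q in dark grey and the 7 tested bZIP genes in orange. Junb at -0.95 and Jund at -1.17 lie among the called falling genes, and Fos, Fosb, Mafg, Mafk and Bach1 lie near 0.

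Jun, which encodes c-JUN, the JUN protein best known as an activator, was barely detected, with 0.0333 FPKM in J2E-KLF3-ER and 0.318 FPKM in J2E. The authors did not test it, and the authors' deposited table gives a log2 fold change of -3.25, which becomes -0.35 when 1 FPKM is added to both values. Jun was 0.0878% of the JUN family sum in J2E-KLF3-ER and 0.425% in J2E. Its locus is chr4:94715727-94718913 (mm9).

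The FOS genes and Atf3 were low in both groups. Fos, the classic immediate early gene (chr12:86814851-86818219, mm9), had 4.02 FPKM in J2E-KLF3-ER and 4.52 FPKM in J2E, and the authors' deposited table gives a log2 fold change of -0.17 (q = 0.863). Fosb (chr7:19888045-19895394, mm9), a second FOS partner of JUN proteins, had 3.11 FPKM in J2E-KLF3-ER and 3.05 FPKM in J2E, and the authors' deposited table gives a log2 fold change of 0.03 (q = 0.979). Fosl2 encodes FRA-2, a FOS protein without the strong activation domain of c-FOS. It had 1.10 FPKM in J2E-KLF3-ER and 1.65 FPKM in J2E at chr5:32438845-32460212 (mm9), and was not tested. Atf3, a stress-induced factor that can repress as a homodimer, had 0.904 FPKM in J2E-KLF3-ER and 1.05 FPKM in J2E at chr1:192994176-193007212 (mm9), and was not tested either.

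Mafk, at chr5:140267490-140278606 (mm9), was the highest of the 10 genes. It encodes a small MAF partner of NF-E2 p45 in erythroid cells and had 81.1 FPKM in J2E-KLF3-ER and 87.2 FPKM in J2E, and the authors' deposited table gives a log2 fold change of -0.10 (q = 0.824). Mafg, the other small MAF gene of the group (chr11:120489667-120494861, mm9), had 33.7 FPKM in J2E-KLF3-ER and 30.1 FPKM in J2E, and the authors' deposited table gives a log2 fold change of 0.16 (q = 0.748). Bach1 (chr16:87699199-87733591, mm9) had 15.4 FPKM in J2E-KLF3-ER and 15.3 FPKM in J2E, and the authors' deposited table gives a log2 fold change of 0.01 (q = 0.989). Per length, the order of levels in J2E-KLF3-ER was Mafk, Junb, Mafg, Bach1, Jund, Fos, Fosb, Fosl2, Atf3 and Jun, with Junb and Mafg almost equal. In J2E the order was the same, with Junb well above Mafg. With pooled values, whether neighbours in this order differ was not tested.

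Peaks of KLF3 were assigned to 7 of the 10 genes, against 16.1% of all named genes and 32.3% of tested genes. Of the 7 tested genes of the group 6 had a KLF3 peak. KLF1 peaks were assigned to 5 of the 10 genes, against 11.9% of all named genes and 19.1% of tested genes, and to 2 of the 7 tested genes, which were the falling genes Junb and Jund. Both kinds of peak were assigned to 3 genes, Junb, Jund and Atf3, against a background of 6.67% of named and 13.1% of tested genes, and at all 3 a KLF3 peak overlapped a KLF1 peak by 1 bp or more. Fos, Fosb, Mafk and Bach1 had KLF3 peaks alone, Jun and Fosl2 KLF1 peaks alone, and Mafg neither. Of the peaks at the group, 6 of 13 KLF3 peaks and 6 of 10 KLF1 peaks overlapped the other list, against 34.0% of all KLF3 and 39.3% of all KLF1 peaks. There was 1 list per factor from different cells and antibodies, so the counts have no replicate test and heights are compared only within a list.

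**Figure D3:**
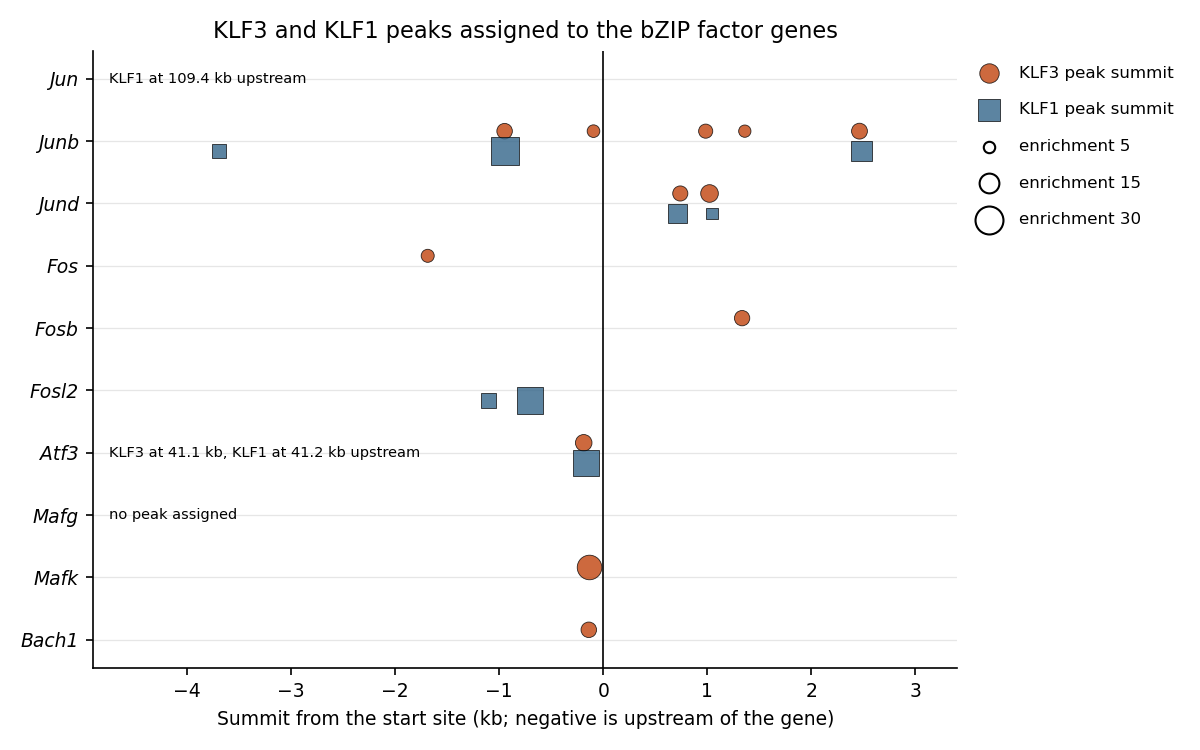
Summits of KLF3 peaks (circles, above) and KLF1 peaks (squares, below) in kb from the start site of each gene, negative upstream, with symbol area proportional to the authors' enrichment. Paired summits stand at Junb, Jund and Atf3; Mafk and Bach1 have a KLF3 summit just upstream of the start site, and peaks more than 5 kb away are written out.

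Junb carried the most peaks of the group, with 5 KLF3 summits and 3 KLF1 summits. Of the 3760 genes with a KLF3 peak 10, Junb included, had 5 or more, and of the 2773 genes with a KLF1 peak 200 had 3 or more. The highest KLF1 peak of the group was chr8:87503375-87503795 (mm9), with an enrichment of 31.2 and rank 185 in the KLF1 list. The peak had its summit 942 bp upstream of the Junb start site. A KLF3 peak, chr8:87503484-87503708, overlapped it with a summit 6 bp away and an enrichment of 9.26. Another overlapping pair lay past the 3' end of the gene, with the KLF3 summit 2462 bp and the KLF1 summit 2484 bp downstream of the start site, 22 bp apart, at enrichments of 9.67 for KLF3 and 16.5 for KLF1. The median enrichment was 7.94 in the KLF3 list and 9.72 in the KLF1 list, so in both pairs each peak was above its list's median. Within and at the start of the gene KLF3 summits without a KLF1 partner lay 94 bp upstream (6.14, promoter), 984 bp downstream (7.68, coding sequence) and 1360 bp downstream (5.82, UTR). Those last 2 summits share 1 interval, and all 3 enrichments are under the median of the KLF3 list. A further KLF1 peak lay 3693 bp upstream, at an enrichment of 7.14.

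Jund carried its peaks inside the gene, in sequence annotated as UTR. The KLF3 interval chr8:73222193-73222880 (mm9) held summits 740 and 1021 bp downstream of the start site, with enrichments of 8.81 and 12.0. The KLF1 interval chr8:73222189-73222783 held summits 713 and 1047 bp downstream, with enrichments of 14.7 and 5.22. Each KLF3 summit thus had a KLF1 summit 27 or 26 bp away, and the higher summit was the downstream one for KLF3 and the upstream one for KLF1.

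Atf3, which is low in both groups, also had paired peaks. At its promoter the KLF3 summit was 188 bp and the KLF1 summit 164 bp upstream, with enrichments of 10.6 for KLF3 and 25.5 for KLF1 (rank 298 in the KLF1 list). About 41 kb upstream a KLF3 summit (enrichment 12.0, 41123 bp) and a KLF1 summit (10.2, 41155 bp) lay 32 bp apart. Among peaks assigned by closest start site, overlapping peaks of both factors were therefore found at the 2 falling genes and at a gene near 1 FPKM. Pairs close to the uncalled Mafk and Mafg were assigned to neighbouring genes and are given below.

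The KLF3 peaks without a KLF1 peak at the same gene were at Mafk, Bach1, Fos and Fosb, none of which was called. The highest KLF3 peak of the group was at the Mafk promoter, chr5:140267186-140267547 (mm9), with its summit 132 bp upstream, an enrichment of 23.2 and rank 118 among the 4579 KLF3 peaks. At Bach1 the KLF3 summit lay 139 bp upstream, in chr16:87698952-87699272, with an enrichment of 9.27. Fos had a KLF3 summit 1687 bp upstream (6.54), and Fosb one 1334 bp downstream in an intron (9.04). Of the KLF1 peaks alone, Fosl2 had 1 interval with summits 702 bp (26.4, rank 276) and 1103 bp (9.37) upstream, and Jun had 1 peak 109376 bp upstream (7.50). The strongest KLF3 promoter peak of the group thus stood at a gene whose log2 fold change was -0.10.

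Some peaks close to these genes were assigned to a neighbour and so are outside the counts. Just past the 3' end of Mafk an overlapping pair of peaks was assigned to Tmem184a, with summits 1653 bp (KLF3, enrichment 11.2) and 1666 bp (KLF1, 31.9, rank 177) from the Mafk body. Near Mafg a pair at the Sirt7 promoter, with enrichments of 9.19 for KLF3 and 7.14 for KLF1, lay 3295 and 3302 bp away. Inside Prdx2, the nearest neighbour of Junb, a pair of peaks in an intron had enrichments of 8.38 for KLF3 and 19.5 for KLF1, more than 5 kb from Junb.

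The KLF1 list also has columns that name, for each peak, the nearest gene called up or down in a comparison headed K1vsK1ER. The header does not state which cells are on top, and the columns hold no values. The up column named 4 of the 10 genes, Junb, Jund, Fosl2 and Mafk, against 2.39% of all named genes and 4.16% of tested genes. The down column, which names 0.956% of tested genes, named 0 of the 10. A gene can appear in the up column only where it is the nearest such gene to some KLF1 peak. Junb was named at 12 peaks, Jund at 5, Fosl2 at 16 and Mafk at 1, the peak past its 3' end. Of these 4 genes Junb and Jund fell in J2E-KLF3-ER, Mafk was not called and Fosl2 was not tested. Of all 400 tested genes in the up column 52 (13.0%) fell and 6 (1.50%) rose in J2E-KLF3-ER by the authors' q. Over all tested genes 1.90% fell and 0.821% rose. Junb and Jund are 2 of the 52 falling genes of the up column.

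To set the bound sequence beside the peaks, the 250 bases upstream of each start site were read from RefSeq (GRCm38.p6), where all 10 genes matched by symbol. Printed are the windows of Mafk and Bach1, whose KLF3 summits fall inside this distance without a KLF1 peak, and of Junb and Atf3, whose KLF3 summits there are low or paired with KLF1. Each runs 5′ to 3′ on the gene's strand and ends at the base before the start site, and capitals mark the letters CCNCNCCC, a CACCC-type KLF motif, read on either strand. The windows are chr5:139791286-139791535 (+) for Mafk, chr16:87698704-87698953 (+) for Bach1, chr8:84978749-84978998 (-) for Junb and chr1:191183334-191183583 (-) for Atf3.
Mafk: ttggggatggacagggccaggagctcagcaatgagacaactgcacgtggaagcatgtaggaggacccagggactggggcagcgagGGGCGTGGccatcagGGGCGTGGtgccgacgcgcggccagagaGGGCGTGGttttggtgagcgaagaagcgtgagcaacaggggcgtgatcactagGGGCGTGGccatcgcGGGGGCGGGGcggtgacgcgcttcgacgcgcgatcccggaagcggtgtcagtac
Bach1: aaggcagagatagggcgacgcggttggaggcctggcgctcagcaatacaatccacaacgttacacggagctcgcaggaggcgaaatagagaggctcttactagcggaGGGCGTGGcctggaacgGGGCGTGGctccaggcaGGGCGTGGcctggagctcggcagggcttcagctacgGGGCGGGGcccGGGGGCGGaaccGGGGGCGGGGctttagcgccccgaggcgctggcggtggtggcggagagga
Junb: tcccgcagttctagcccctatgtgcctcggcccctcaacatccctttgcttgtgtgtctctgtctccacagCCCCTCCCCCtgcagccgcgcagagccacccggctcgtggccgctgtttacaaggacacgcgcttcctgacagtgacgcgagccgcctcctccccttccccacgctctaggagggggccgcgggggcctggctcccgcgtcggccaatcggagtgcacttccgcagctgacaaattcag
Atf3: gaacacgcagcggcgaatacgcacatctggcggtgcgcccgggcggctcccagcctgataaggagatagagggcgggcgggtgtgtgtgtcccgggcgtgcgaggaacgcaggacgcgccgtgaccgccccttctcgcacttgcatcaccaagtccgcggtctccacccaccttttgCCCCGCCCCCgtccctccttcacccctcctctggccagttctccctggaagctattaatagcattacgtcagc

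The Mafk window held 6 KLF motifs, of which 4 read GGGCGTGG, at 165 to 158, 150 to 143, 122 to 115 and 69 to 62 bases before the start site. The Bach1 window held 7 motifs, of which 3 read GGGCGTGG, at 143 to 136, 126 to 119 and 109 to 102 bases before the start site. On the mm9 annotation the KLF3 summits were 132 bp upstream at Mafk and 139 bp upstream at Bach1, so both distances fall within the span of the repeats. The builds were not aligned, but the gene length of Bach1 is the same in both annotations and that of Mafk differs by 1 bp. Junb had 2 overlapping motifs at 179 to 170 bases and Atf3 had 2 overlapping motifs at 73 to 64 bases before the start site. The KLF3 summits 94 bp upstream at Junb and 188 bp upstream at Atf3 lie outside these CCNCNCCC positions by distance. The Atf3 window also held 5 GC boxes, the letters GGGCGG on either strand. Those at 210 to 205 and at 180 to 175 bases before the start site stand on the 2 sides of its KLF3 summit. The Junb window held 0 GC boxes.

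Over the group, the motif CCNCNCCC was found in 9 of 10 windows, all but that of Jund, against 45.9% of the 32841 RefSeq windows of the same length. The GC box GGGCGG, which overlaps some of these motifs, was in 7 of 10 windows, against 32.7%. The windows of these genes are rich in G and C, at 47.6% for Jund and 58.4% to 69.2% for the other 9, against a median of 52.4% over all windows, and the part of base composition in these counts was not tested. The AP-1 site TGANTCA was in 0 of 10 windows, against 6.75%, and the cyclic AMP response element TGACGTCA in 0 of 10, against 1.55%. The letters TGCTGA, an arm of the MARE and not the whole element, were in 2 of 10, those of Mafk and Bach1, against 16.1%. The CArG box, the site of SRF, was in 0 of 10, against 1.47%. Both strands were searched for each motif, and a match is a description of letters and not of a bound site. The gene length in RefSeq and at the mm9 locus was 9839 and 5195 bp for Mafg and 7423 and 7350 bp for Fosb. For Fos the lengths were 3385 and 3369 bp. Whether the windows of these genes end at the start sites used for the peaks was not checked.

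Junb and Jund are both on chromosome 8, where 516 genes were tested, of which 13 fell and 3 rose, with a median log2 fold change of 0.01. Over all tested genes 1.90% fell and 0.821% rose, the background for each count in this paragraph. Within 100 kb of Junb 15 other genes were tested, and 2 of them fell. Klf1, which encodes the activator of the family and lies 71614 bp from Junb, had 55.6 FPKM in J2E-KLF3-ER and 122 FPKM in J2E, and the authors' deposited table gives a log2 fold change of -1.14 (q = 0.00408). Prdx2, which encodes a peroxiredoxin abundant in red cells and lies 2596 bp from Junb, had 64.1 FPKM in J2E-KLF3-ER and 109 FPKM in J2E, and the authors' deposited table gives a log2 fold change of -0.76 (q = 0.00408). The other 13 neighbours of Junb were not called, with values between -1.53 for Syce2 and 0.41 for 2310036O22Rik. The median over the 15 was -0.29. Around Jund 9 genes were tested within 100 kb, and 0 were called by the authors' q. Their log2 fold changes ran between -0.66 for Pgpep1 and 0.83 for Mpv17l2, with a median of 0.05. The difference between the 2 regions was not tested.

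**Figure D4:**
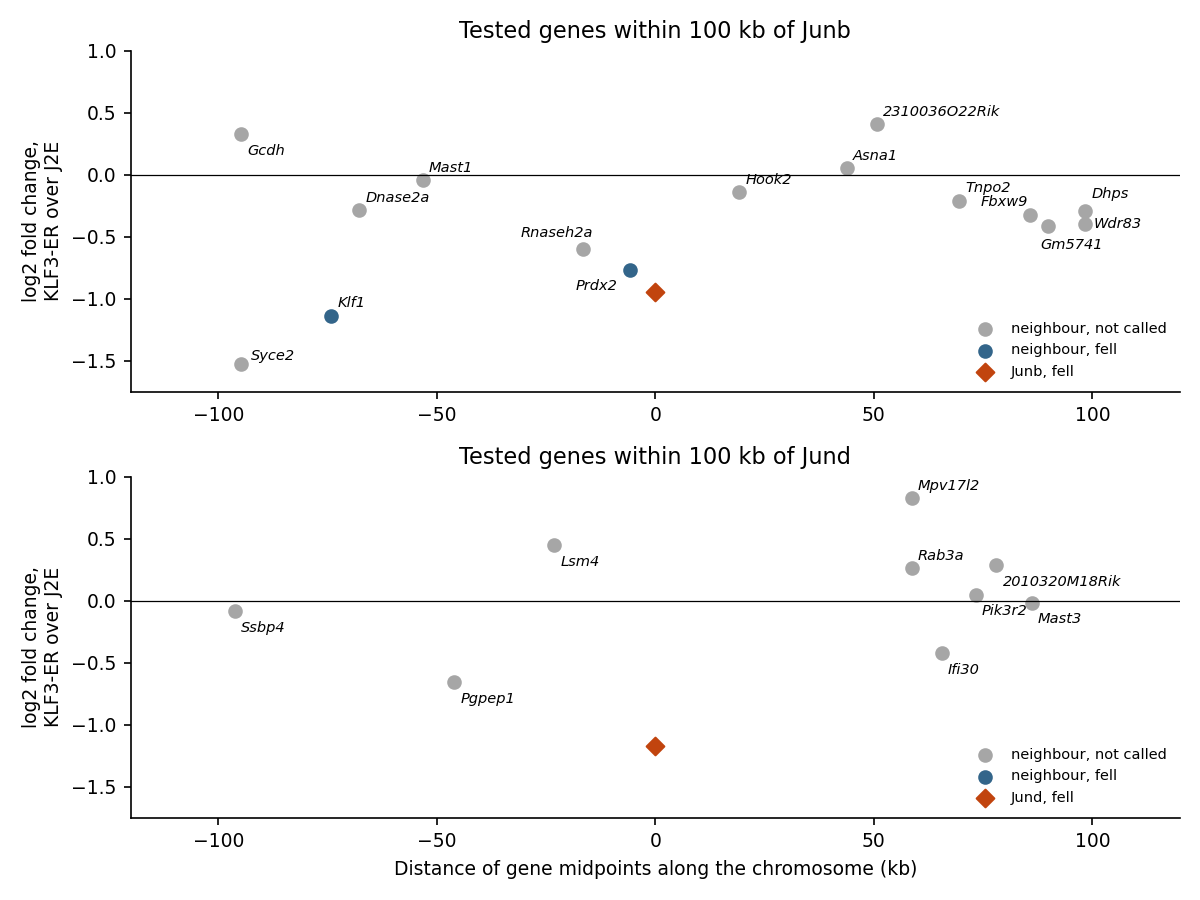
Log2 fold change of J2E-KLF3-ER over J2E (authors' values) for tested genes within 100 kb of Junb (above) and Jund (below), placed by the distance between gene midpoints in kb along chromosome 8. Around Junb (-0.95, diamond) Klf1 at -1.14 and Prdx2 at -0.76 fell. Around Jund (-1.17, diamond) none of 9 neighbours was called, beside 1.90% falling over all tested genes.

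The called genes closest to Junb in log2 fold change and mean level were Tagln2 (36.9 FPKM in J2E-KLF3-ER and 72.2 FPKM in J2E), an actin-binding transgelin, Ermap (38.6 FPKM in J2E-KLF3-ER and 70.0 FPKM in J2E), an erythroid membrane protein, and Tuba1b (35.3 FPKM in J2E-KLF3-ER and 60.7 FPKM in J2E), an alpha tubulin. Those closest to Jund were Trib3 (4.16 FPKM in J2E-KLF3-ER and 9.51 FPKM in J2E), a stress-induced pseudokinase, Tubb2b (3.76 FPKM in J2E-KLF3-ER and 8.91 FPKM in J2E), a beta tubulin, and Fbxo44 (4.65 FPKM in J2E-KLF3-ER and 9.75 FPKM in J2E), an F-box protein. Likeness was the distance in log2 fold change and log2 mean FPKM over the 2 pooled values. Of these 6 genes, Tuba1b, Trib3 and Fbxo44 had peaks of both factors, against 13.1% of all tested genes. Tagln2 had KLF3 peaks alone, and Ermap and Tubb2b had no assigned peak of either factor.

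Other genes were taken as bZIP relatives by name, and whether each protein has the domain was not checked. They formed 4 lists of 42 genes in all, of which 24 were tested. By the authors' q 1 fell and 0 rose, beside the background of 1.90% falling. The falling gene was Xbp1, a factor of the unfolded protein response, with 9.32 FPKM in J2E-KLF3-ER and 18.0 FPKM in J2E, and the authors' deposited table gives a log2 fold change of -0.95 (q = 0.00408). Xbp1 had a KLF3 peak 267 bp downstream of its start site with an enrichment of 24.4 (rank 93) and no KLF1 peak. Log2 fold changes were below 0 for 15 of the 24, against 46.6% of all tested genes. Of the 42 genes 13 had a KLF3 peak and 11 a KLF1 peak, against 16.1% and 11.9% of all named genes (32.3% and 19.1% of tested genes).

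Among the larger partners of the small MAF proteins and the other MAF genes, 5 of 10 were tested and 0 were called. Nfe2, which encodes NF-E2 p45, had 44.7 FPKM in J2E-KLF3-ER and 65.9 FPKM in J2E, and the authors' deposited table gives a log2 fold change of -0.56 (q = 0.0550). About 3.1 kb upstream of Nfe2 lay an overlapping pair of peaks with enrichments of 28.0 for KLF3 (rank 41) and 54.3 for KLF1 (rank 17), higher than any peak assigned to the 10 genes. Nfe2l2, which encodes NRF2, had 26.4 FPKM in J2E-KLF3-ER and 32.0 FPKM in J2E, and the authors' deposited table gives a log2 fold change of -0.28 (q = 0.494), and its promoter held an overlapping pair of peaks with enrichments of 27.1 for KLF3 (rank 49) and 7.76 for KLF1 (rank 2619). Maff, the third small MAF gene, is outside the 10 and was named after its value was seen. It had 2.53 FPKM in J2E-KLF3-ER and 6.004 FPKM in J2E, and the authors' deposited table gives a log2 fold change of -1.25 (q = 0.0538), and no assigned peak. Nfe2l3, of the same list and also named after its value was seen, was at 0.48 in log2 fold change (q = 0.290). Among the other AP-1 genes 0 of 3 tested were called. By the authors' deposited table Atf2 was at -0.24, Fosl1 at -0.10 and Atf7 at 0.47 (q = 0.324) in log2 fold change. Atf7 was named after its value was seen. Of the genes listed by name under C/EBP and PAR, 0 of 5 tested were called. Cebpg was at -0.33 and Cebpz at 0.17 in log2 fold change by the authors' deposited table.

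Genes that act on AP-1 or are reached through MAREs gave the following counts. Of 13 tested MAP kinases and their activators, which signal to JUN and FOS proteins, 0 fell and 0 rose by the authors' q. Of 5 tested genes for SRF, which binds the Fos promoter, and its partners 0 were called, with Elk4 at 0.20 and Srf at -0.25 in log2 fold change by the authors' deposited table. Of 4 tested genes for turnover of AP-1 proteins 0 were called, with Itch at -0.20 in log2 fold change by the authors' deposited table. Of 12 tested antioxidant and MARE genes 2 fell and 0 rose, beside 1.90% falling and 0.821% rising over all tested genes, the background for each count here. Gclm, the modifier subunit of the enzyme that starts glutathione synthesis, had 39.6 FPKM in J2E-KLF3-ER and 63.6 FPKM in J2E, and the authors' deposited table gives a log2 fold change of -0.68 (q = 0.00408), and no assigned peak. Keap1, which targets NRF2 for degradation, had 18.7 FPKM in J2E-KLF3-ER and 29.4 FPKM in J2E, and the authors' deposited table gives a log2 fold change of -0.65 (q = 0.0435). Its promoter held an overlapping pair of peaks with enrichments of 7.06 for KLF3 and 35.6 for KLF1. Gclc, for the catalytic partner of Gclm, was at 0.03 in log2 fold change by the authors' deposited table and was not called, and was named after its value was seen. All of these lists are too short for a share to be set against the background with any precision.

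**Figure D5:**
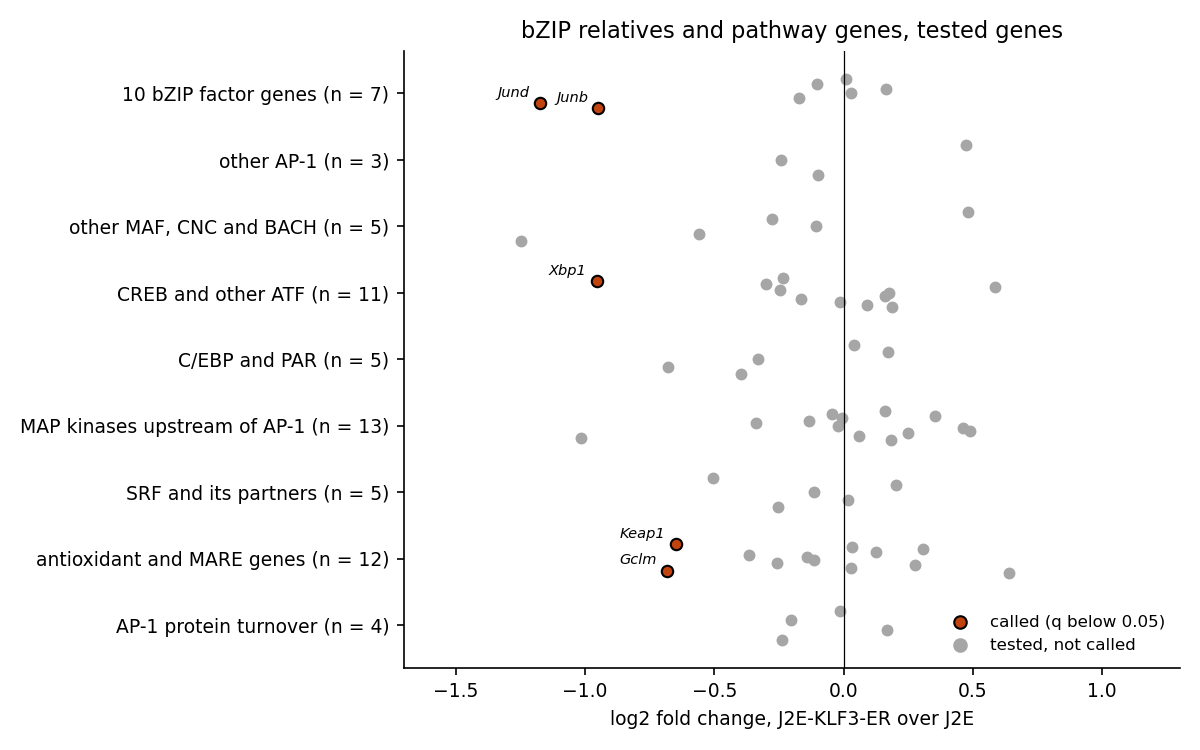
Log2 fold change of J2E-KLF3-ER over J2E (authors' values) for the tested genes of each list, with 1 point per gene, called genes in orange and named, and vertical spread within a row for legibility only. Called genes are Jund, Junb, Xbp1, Gclm and Keap1, all below 0.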

How the data were processed

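Libraries were 6 of 4sU-labelled RNA and 4 of chromatin. Per the submitters' processing notes, TopHat2 2.0.10, MACS2, MACS 1.4.2 and build mm9 entered the processing, and the role of each tool is not given in the sources used here. In the deposited RNA table, per the file headers, FPKM is pooled per group and stands beside the authors' log2 fold change of J2E-KLF3-ER over J2E. Their p-value, their q-value and the score of their test follow, per the file headers. A Benjamini-Hochberg adjustment of the deposited p-value over 9619 tested genes gave the deposited q-value to within 5.26e-07. The 93 blank rows were dropped, and 0 per-sample columns were left unused. Per the file headers, the peak lists hold an enrichment value per peak, a summit, an annotation class and the authors' closest start site. What the enrichment was taken over is not stated there. RNA loci were turned to 1-based starts, and peak coordinates are as deposited. Distances were turned to the strand of the gene. No depth was given, and peak counts cover 1 list per factor.

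Members and lists were chosen with earlier results of these data known. Named genes are the 10 members, up to 4 called genes per list (or the 2 highest in J2E where 0 were called), Klf3, Klf1, the 3 called genes nearest each called member, and tested neighbours within 100 kb. Exceptions are marked, and 3 genes under this rule are not reported here. Protein features had been planned and were not analysed here. The adjustment and the motif search were tested on simulated data. Alternatives were q thresholds of 0.01 and 0.1, added 1 or 0.1 FPKM, centring, a filter at 1 FPKM, peak distances of 1 kb and 10 kb, summit gaps of 100 bp and the higher-ranked part of each list. Calculations used Python 3.11.15, pandas 2.3.3, NumPy 2.4.6 and matplotlib 3.10.9.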

Additional observations from a re-analysis of the deposited data

How the results depend on the processing

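Across 65 recomputed values, 63 stayed within 1.5-fold of the main value (no spread was available). For log2 fold changes this range applied to the fold change itself and not to its log2. Genes near 0 can hardly leave it, and a log2 value can shift by a large part of its size inside it. Fosl2, counted among the 63, moved from -0.58 to -0.33 in log2 fold change with 1 FPKM added. Also among the 63, the uncalled Bach1 changed sign, against 0.01 as deposited. It stood at -0.02 after subtracting the median of all tested genes and -0.08 after subtracting that of its chromosome. The counts of 2 falling and 0 rising genes held at each q threshold and filter tried. The values outside that range were the log2 fold change of Jun, at -0.35 with 1 FPKM added and -1.65 with 0.1 FPKM added against -3.25 as deposited, where both FPKM values are under 1. Genes with a KLF3 peak numbered 5 within 1 kb, 7 within 10 kb and 6 in the higher-ranked part of the list, against 7 in all, and genes with a KLF1 peak 4, 4 and 4, against 5. In an alternative added after seeing the data, the q-values readjusted over genes at 1 FPKM or more were 0.0542 for Maff and 0.0554 for Nfe2. No paired analysis was possible because the RNA values are pooled per group, and for the same reason no replicate could be left out. Depth per library is unknown, so low genes such as Jun, Fosl2 and Atf3 are not resolved.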

Other observations

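The letters GGGCGTGG (CCACGCCC on the other strand), noticed in the Mafk and Bach1 windows and counted after they were seen, were absent from the windows of the other 8 genes of the group. Over all 32841 RefSeq windows of 250 bases, 4.80% held 1 copy or more and 0.0944%, or 31 windows, held 3 or more. Of 16287 genes with a window and an RNA row, a KLF3 peak within 1 kb of the start site was listed for 69.6% of the 23 genes with 3 copies or more (16 genes, Mafk and Bach1 among them), 40.1% of the 1177 genes with 1 or 2 copies and 13.1% of the 15087 genes with none. For KLF1 the shares were 47.8%, 17.5% and 5.43%. These counts have no test, and base composition differs between such windows.

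Mapk3, which encodes the MAP kinase ERK1 and was named after its value was seen, had 3.65 FPKM in J2E-KLF3-ER and 7.38 FPKM in J2E. The authors' deposited table gives a log2 fold change of -1.02 (q = 0.0808), the lowest of the 13 tested genes of the MAP kinase list. Mapk14, also named after its value was seen, was the highest of them, at 0.49 (q = 0.162).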
